A study of Mus musculus with 24 samples.

Results

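The expression of 10 genes of the neutrophil lineage was followed in the mouse spleen 24 hours after total body irradiation. The genes were Elane and Mpo (primary granule), Camp, Ngp, Ltf and Lcn2 (secondary granule), S100a8 and S100a9 (calgranulins) and Stfa1 and Stfa3 (stefins). They were found as the array probes that carry these gene names and are no controls, which gave 12 probes of 55681. With 1 probe kept per gene, the 10 genes stood among 29521 features tested, and all 10 passed the filter on dim probes, since each kept probe was well above background on all 24 arrays. BALB.K mice received 0, 300, 400 or 800 cGy and B10.BR mice 0, 300, 500 or 900 cGy, and the labels describe 800 cGy in BALB.K and 900 cGy in B10.BR as myeloablative. The 0 cGy mice were resting and not irradiated, no genotype other than the strain is given, and the age of the mice is not stated in the sources used here. Each of the 8 groups had 3 arrays, and each array held RNA of whole spleen cells pooled from 3 mice, so p-values measure the spread between pools. Levels are log2 values of the processed signal, set so that the 75th percentile of each array is 0, and tests are limma's moderated test with Benjamini-Hochberg adjustment over all 29521 features, with a call at an adjusted p under 0.05.

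Neutrophils fill their granules in a fixed order as they mature. Promyelocytes make the contents of primary granules, such as neutrophil elastase and myeloperoxidase, myelocytes and metamyelocytes make those of secondary granules, such as lactoferrin and cathelicidin, and maturing cells accumulate the cytosolic calgranulins. The mouse spleen is a site of blood formation as well as a store of mature leukocytes, so both precursor and mature transcripts can be present in it. Stefins are cytosolic inhibitors of cysteine cathepsins, and mice carry a cluster of stefin A genes on chromosome 16 that myeloid cells transcribe.

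The scanner files showed between 66.9% and 76.9% of probes well above background, with a 75th percentile of intensity between 830.3 and 1235, and no member spot was saturated on any array. The arrays lay on 3 slides. The 0 and 300 cGy arrays of B10.BR were all on the same slide, whereas the 0 cGy arrays of BALB.K were on another slide than its 400 and 800 cGy arrays and 2 of its 3 arrays at 300 cGy. Other cell types moved with dose: the mean log2 level of 12 macrophage markers went from 1.87 to 2.15 in BALB.K at 0 cGy to 4.13 to 4.23 at 800 cGy, and that of 8 B cell markers from 2.84 to 2.98 to 0.1 to 0.13. In B10.BR the same macrophage list lay between 2.27 and 2.54 at 0 cGy and between 4.29 and 4.47 at 900 cGy, and the B cell list between 3.29 and 3.33 and between 0.6 and 0.66. Of 10 erythroid markers, 5 of them well above background on all 24 arrays, 9 or 10 fell at every dose, and their mean level went from 4.99 to 5.35 to -0.04 to 0.2 in BALB.K at 800 cGy and from 3.33 to 3.67 to -4 to -3.32 in B10.BR at 900 cGy. The 8 T cell markers went from 2.59 to 2.75 to 0.77 to 0.84 and from 3.07 to 3.22 to 0.54 to 0.68, and 9 monocyte markers from 0.96 to 1.96 to 2.71 to 2.82 and from 2.43 to 2.75 to 2.96 to 3.07. The mean of 12 exocrine pancreas markers ranged from -4.69 to 6.6 over the arrays, with B10.BR between -4.69 and -1.85 at 0 cGy, between 1.82 and 6.36 at 300 cGy, between -3.77 and 3.74 at 500 cGy and between 5.79 and 6.26 at 900 cGy. All 12 of these markers passed the test at 300 and 900 cGy in B10.BR and none at 500 cGy. In BALB.K, 3 arrays stood at the end of their group for all 10 genes: the first at 300 cGy and the first at 400 cGy were the lowest, and the second at 800 cGy the highest. That first 300 cGy array is the one on the slide of the unirradiated BALB.K arrays, so the 300 cGy values within that slide rest on it. In B10.BR the third 900 cGy array was the lowest of its group for all 10. The Y-linked gene Ddx3y was well above background on 1 of 3 BALB.K arrays, the first, at each of 0, 300 and 400 cGy. It was so on all 3 at 800 cGy and on all B10.BR arrays. At 300 and 400 cGy this first array is the one that was lowest for all 10 genes. Between BALB.K arrays of like Ddx3y signal, 2 arrays per group remained at 300 and 400 cGy. There the call of S100a9 at 300 cGy given below was lost (0.39, adjusted p = 0.0675, against 0.42 with all arrays). Lcn2 at 400 cGy passed (0.93, adjusted p = 0.0403). At 800 cGy only 1 unirradiated array remained, and the changes were 1.02 for Ltf and 1.13 for Stfa3, against 1.03 and 0.99 with all arrays. The part of the shifts in marker levels in the values below was not tested. In these bulk samples, fewer cells of a type and less RNA per cell cannot be told apart.

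Among the neutrophil genes the stefins are near copies of each other, and this bears on what their probes can measure. The Stfa3 probe (60 bases, chr16:36450693-36450752, minus strand, mm9 per the scanner files) and the probe of Cstdc5, in the same cluster, (chr16:36359525-36359584, minus strand) cover matching stretches of 41 bases, of which 35 are identical. Both stretches are shown because cross-hybridisation between them was not tested; they lie at chr16:36450693-36450733 and chr16:36359544-36359584, and capitals mark the 6 bases that differ.
Stfa3: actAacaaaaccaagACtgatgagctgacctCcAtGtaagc
Cstdc5: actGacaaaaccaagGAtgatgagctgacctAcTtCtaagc
The Cstdc4 probe matched the Stfa3 probe at 30 of 35 overlapping bases (85.7%), and cross-hybridisation between these was not tested either. The Stfa1 probe (chr16:36285398-36285457) matched the Stfa2 probe at 40 of 58 aligned bases (69%). The 2 Camp probes overlap (chr9:109749911-109749970 and chr9:109749901-109749950), while the 2 Mpo probes lie apart, the main probe at chr11:87617840-87617899 and the other at chr11:87615121-87615180.

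The promoters of the primary granule pair and of the stefin pair are given because Elane and Mpo moved together over the arrays and Stfa1 rose in B10.BR while no Stfa3 change there passed the test. They are the 250 bases before the gene start in RefSeq on GRCm38.p6, at chr10:79886062-79886311 (plus strand) for Elane, chr11:87793534-87793783 (plus) for Mpo, chr16:36276898-36277147 (plus) for Stfa1 and chr16:36455393-36455642 (minus) for Stfa3. Capitals mark matches, on either strand, to GAGGAAG, a form of the site of the myeloid factor PU.1, or to TTGCNNAA, a form of the C/EBP site.
Elane: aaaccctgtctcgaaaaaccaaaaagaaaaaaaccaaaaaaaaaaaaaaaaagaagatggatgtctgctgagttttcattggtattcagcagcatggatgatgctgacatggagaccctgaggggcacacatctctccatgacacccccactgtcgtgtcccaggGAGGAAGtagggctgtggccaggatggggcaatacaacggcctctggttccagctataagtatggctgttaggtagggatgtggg
Mpo: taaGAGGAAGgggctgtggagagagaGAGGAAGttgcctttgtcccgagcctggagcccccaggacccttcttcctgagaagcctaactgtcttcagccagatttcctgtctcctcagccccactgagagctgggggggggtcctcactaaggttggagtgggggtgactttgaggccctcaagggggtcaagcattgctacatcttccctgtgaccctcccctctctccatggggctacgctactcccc
Stfa1: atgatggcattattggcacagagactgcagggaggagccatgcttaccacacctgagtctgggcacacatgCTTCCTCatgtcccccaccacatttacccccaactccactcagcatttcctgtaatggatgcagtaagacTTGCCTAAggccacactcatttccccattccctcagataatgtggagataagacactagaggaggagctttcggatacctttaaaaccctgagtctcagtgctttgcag
Stfa3: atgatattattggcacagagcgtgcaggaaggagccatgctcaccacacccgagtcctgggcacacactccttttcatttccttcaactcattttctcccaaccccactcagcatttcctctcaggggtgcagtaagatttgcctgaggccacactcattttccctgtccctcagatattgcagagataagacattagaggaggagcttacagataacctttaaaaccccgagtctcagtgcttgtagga
The Stfa1 and Stfa3 promoters were identical at 213 of 255 aligned columns (83.5%), against 44% for Elane and Mpo. GAGGAAG matched once in the Elane promoter (85 to 79 bases before the start) and at 2 places in the Mpo promoter (247 to 241 and 224 to 218 bases before it). Stfa1 held GAGGAAG at 179 to 173 bases and TTGCNNAA at 109 to 102 bases before the start, and these letters were not in the Stfa3 window. Of other stefin genes in the cluster, Cstdc5 held both, Cstdc4 only GAGGAAG, Csta3 only TTGCNNAA, and Stfa2 and Stfa2l1 neither. Their log2 changes in B10.BR at 300 cGy were, in this order, 2.62, 1.99, 0.53, -0.11 and 2. A link between these letters and the changes was not tested. GAGGAAG was found in 5 of the 10 members' promoters (Elane, Mpo, Lcn2, S100a8 and Stfa1) and in 10.6% of all 32851 promoters of the same length. TTGCNNAA was found in 5 members (Ngp, Ltf, Lcn2, S100a9 and Stfa1) and in 9.56% of all promoters. The other 3 motifs searched on both strands, each in windows of the same length, were the RUNX form TGTGGT (3 members, 14% of all), the MYB form AACTG (4 members, 39.1%) and the TATA form TATAAA (1 member, 12.4%). No motif contains another, and a match describes the sequence only.

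Elane encodes neutrophil elastase, a serine protease of primary granules (probe at chr10:79350902-79350961, plus strand). Its log2 levels on the 3 arrays of each BALB.K group were 1.35, 1.87 and 1.5 at 0 cGy, 1.13, 1.6 and 1.55 at 300 cGy, 0.92, 1.36 and 1.45 at 400 cGy and 1.61, 2 and 1.61 at 800 cGy. Each irradiated BALB.K group overlapped the unirradiated one, and the 800 cGy arrays lay above all those at 300 and 400 cGy. In B10.BR the levels were 1.36, 1.38 and 1.27 at 0 cGy, 2.52, 2.26 and 1.83 at 300 cGy, 1.68, 1.76 and 1.33 at 500 cGy and 1.14, 0.91 and 0.71 at 900 cGy. All arrays at 300 cGy lay above, and all at 900 cGy below, those of unirradiated B10.BR. Elane rose 1.83-fold at 300 cGy (log2 change 0.87, SE 0.2, adjusted p = 0.00154), and its log2 change at 900 cGy was -0.42 (adjusted p = 0.0836). The rise at 300 cGy stayed past the threshold under all 20 alternatives, between 0.71 and 1.2. Between 300 and 900 cGy in B10.BR, Elane fell by 1.29 on the log2 scale (adjusted p = 0.000152), 2.44-fold.

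Mpo encodes myeloperoxidase, the enzyme that makes hypochlorous acid in primary granules. In BALB.K its levels were 2.42, 2.95 and 2.29 at 0 cGy, 2.05, 3.09 and 2.56 at 300 cGy, 0.44, 2.23 and 2.12 at 400 cGy and 1.48, 2.84 and 1.56 at 800 cGy. The first array at 400 cGy stood far below the others and the second at 800 cGy above its partners. No BALB.K change passed the test: the log2 changes were 0.02, -0.95 (adjusted p = 0.0647) and -0.59 (adjusted p = 0.234), with an SE of 0.42. The other Mpo probe gave 0.11, -0.77 and 0.29, so that the probes differ in direction at 800 cGy. Without the second array at 800 cGy the main probe's change there was -1.04 (adjusted p = 0.0455), and without the second or the third array at 400 cGy the change there was -1.27 (adjusted p = 0.0282) or -1.22 (adjusted p = 0.0379) on that probe. Without the low first array at 400 cGy the change there was -0.38 and did not pass the test. In B10.BR Mpo stood at 2.72, 2.81 and 2.7 at 0 cGy, 4.11, 3.94 and 3.24 at 300 cGy, 2.86, 3.14 and 2.58 at 500 cGy and 0.99, 1.01 and 0.57 at 900 cGy. The 300 cGy arrays were above and the 900 cGy arrays below all 3 unirradiated ones. Mpo fell by 1.89 at 900 cGy (SE 0.42, adjusted p = 0.000792), a 3.69-fold drop, and the other Mpo probe fell by 1.64 (adjusted p = 0.00199).

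At 300 cGy in B10.BR the main Mpo probe had a log2 change of 1.02 (adjusted p = 0.0586) and the other probe rose by 1.32 (adjusted p = 0.0136). The distance from 300 to 900 cGy was the widest of any member in that comparison: Mpo fell by 2.9 (adjusted p = 7.98e-05), or 7.49-fold, with -2.97 on the other probe. The 900 cGy arrays of B10.BR lay on another slide than the 0 and 300 cGy arrays. With slide as a fixed block, the Mpo values at 900 cGy were -1.46 against 0 cGy (adjusted p = 0.148) and -2.48 against 300 cGy (adjusted p = 0.0515); with slide as a random block the adjusted p-values were 0.00545 and 0.000774.

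**Figure D1:**
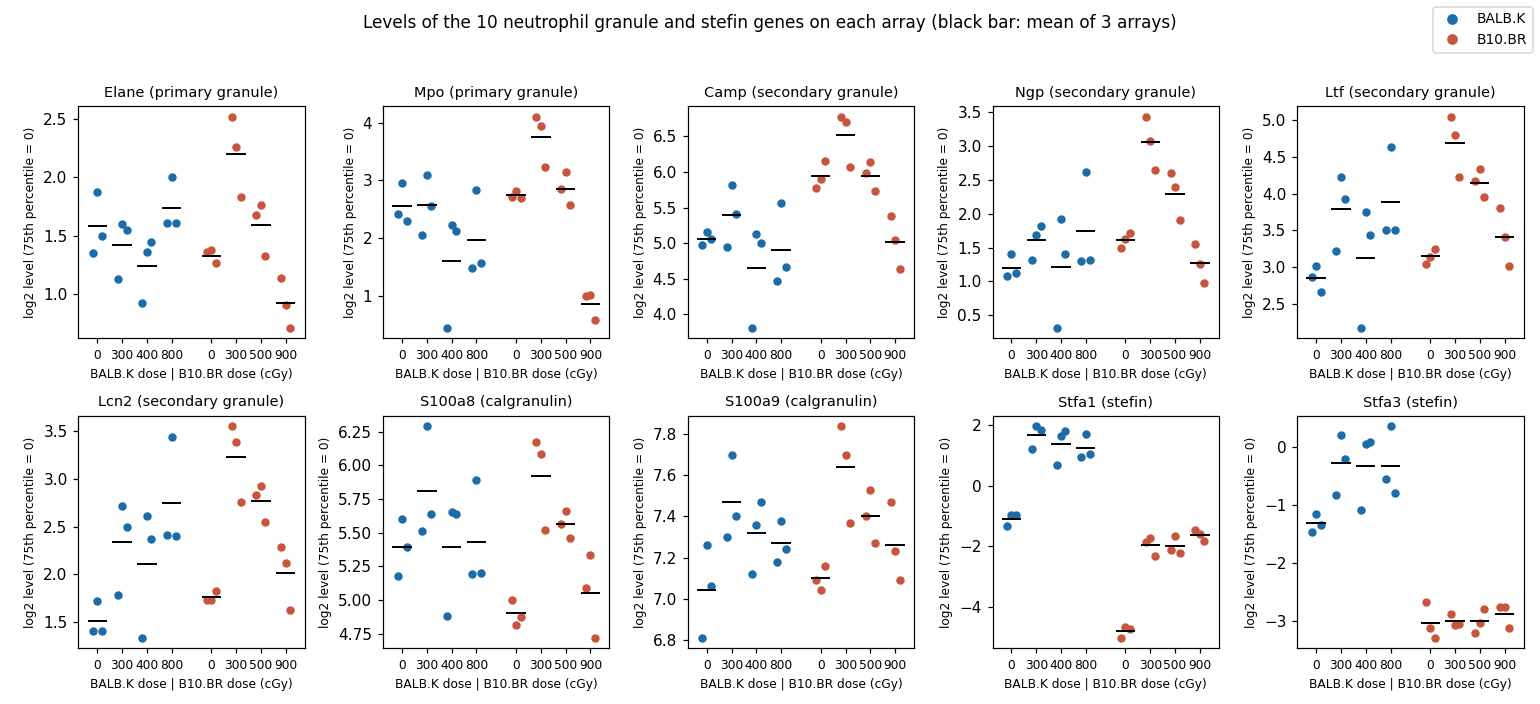
Log2 level (75th percentile of each array at 0) of the 10 genes on each of the 24 arrays, with BALB.K at 0, 300, 400 and 800 cGy in blue and B10.BR at 0, 300, 500 and 900 cGy in red; points are arrays and black bars the mean of 3. Mpo in B10.BR goes from a mean of 2.75 to 3.76 at 300 cGy and 0.86 at 900 cGy, while Stfa1 in B10.BR goes from -4.79 to between -1.99 and -1.62 at all 3 doses.

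Lcn2 encodes lipocalin-2, a secondary granule protein that binds bacterial siderophores and that epithelial cells and macrophages can also make (probe at chr2:32240199-32240258). Its BALB.K levels were 1.41, 1.72 and 1.41 at 0 cGy, 1.79, 2.72 and 2.5 at 300 cGy, 1.34, 2.61 and 2.37 at 400 cGy and 2.41, 3.44 and 2.4 at 800 cGy. The 300 and 800 cGy arrays lay above all unirradiated ones and the first 400 cGy array below them. Lcn2 rose 1.77-fold at 300 cGy (log2 change 0.82, SE 0.33, adjusted p = 0.0459) and 2.36-fold at 800 cGy (1.24, adjusted p = 0.00313). The 400 cGy change was 0.6 (adjusted p = 0.138), and 0.98 without the first array (adjusted p = 0.0161). In B10.BR the levels were 1.73, 1.73 and 1.83, then 3.55, 3.38 and 2.76 at 300 cGy, 2.83, 2.92 and 2.55 at 500 cGy and 2.29, 2.12 and 1.63 at 900 cGy. Here the 300 and 500 cGy arrays were above all unirradiated ones and the 900 cGy arrays overlapped them. Lcn2 rose 2.77-fold at 300 cGy (1.47, adjusted p = 0.00128) and 2.01-fold at 500 cGy (1.01, adjusted p = 0.0154; 0.93 with an adjusted p of 0.052 without the second 500 cGy array), and its change at 900 cGy was 0.25 (adjusted p = 0.542). With slide as a block the BALB.K values were 0.27 (adjusted p = 0.664) at 300 cGy and 0.41 (adjusted p = 0.578) at 800 cGy, and at 300 cGy the adjusted p also went above 0.05 on leaving out each BALB.K array but the first at 300 cGy, with changes of 0.63 to 0.93.

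Ltf encodes lactoferrin, the iron-binding protein of secondary granules (probe at chr9:110942873-110942932). The BALB.K levels were 2.86, 3.02 and 2.66 at 0 cGy, 3.22, 4.22 and 3.93 at 300 cGy, 2.17, 3.75 and 3.43 at 400 cGy and 3.51, 4.63 and 3.5 at 800 cGy. As with Lcn2, the 300 and 800 cGy arrays were all above the unirradiated ones. Ltf rose 1.92-fold at 300 cGy (log2 change 0.94, SE 0.37, adjusted p = 0.0438) and 2.05-fold at 800 cGy (1.03, adjusted p = 0.022). The call at 300 cGy was lost on leaving out each BALB.K array but the first at 300 cGy (0.73 to 1.03), and the call at 800 cGy without the second 800 cGy array (0.66, adjusted p = 0.149) or the third unirradiated array (0.94, adjusted p = 0.0664). With slide as a block the 2 changes were 0.37 (adjusted p = 0.608) and 0.18 (adjusted p = 0.849). In B10.BR Ltf went from 3.04, 3.14 and 3.25 to 5.05, 4.8 and 4.22 at 300 cGy, 4.17, 4.34 and 3.95 at 500 cGy and 3.81, 3.41 and 3.01 at 900 cGy. The 300 and 500 cGy arrays lay above all unirradiated arrays, and 1 of the 900 cGy arrays lay below them. Ltf rose 2.92-fold at 300 cGy (1.54, adjusted p = 0.00226) and 2.01-fold at 500 cGy (1.01, adjusted p = 0.0301). The 500 cGy call was lost on leaving out any 1 of 5 of the 6 arrays, all but the third at 500 cGy, with changes of 0.91 to 1.06.

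Ngp encodes neutrophilic granule protein, a cathelicidin-related protein of secondary granules (probe of 60 bases within chr9:110324266-110324814). In BALB.K its groups overlapped, from 1.08, 1.4 and 1.13 at 0 cGy to 1.3, 2.62 and 1.32 at 800 cGy, and no change passed the test. In B10.BR Ngp stood at 1.49, 1.62 and 1.72 at 0 cGy, 3.44, 3.08 and 2.65 at 300 cGy, 2.6, 2.4 and 1.91 at 500 cGy and 1.56, 1.26 and 0.98 at 900 cGy. The 300 and 500 cGy arrays were above all unirradiated ones. Ngp rose 2.73-fold at 300 cGy (log2 change 1.45, SE 0.36, adjusted p = 0.00319), and its changes were 0.69 at 500 cGy (adjusted p = 0.125) and -0.34 at 900 cGy (adjusted p = 0.451).

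Camp encodes cathelicidin, the precursor of an antimicrobial peptide. In B10.BR its levels were 5.78, 5.9 and 6.15 at 0 cGy, 6.78, 6.7 and 6.07 at 300 cGy, 5.99, 6.14 and 5.73 at 500 cGy and 5.38, 5.05 and 4.64 at 900 cGy. All 900 cGy arrays were below the unirradiated ones. Camp fell by 0.92 at 900 cGy (SE 0.33, adjusted p = 0.0235), 1.9-fold, with -0.85 on its other probe (adjusted p = 0.053). This call was lost without the third unirradiated array (-0.82, adjusted p = 0.0786) or the third 900 cGy array (-0.73, adjusted p = 0.108), and with slide as a block (-0.59, adjusted p = 0.474). In BALB.K the Camp changes were 0.33, -0.41 and -0.16, and none passed the test.

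S100a8 and S100a9 encode the calgranulins, calcium-binding proteins that together form calprotectin (probes at chr3:90473778-90473837 and chr3:90496573-90496632). In B10.BR S100a8 stood at 5, 4.81 and 4.87 at 0 cGy, 6.17, 6.08 and 5.52 at 300 cGy, 5.56, 5.66 and 5.46 at 500 cGy and 5.09, 5.33 and 4.72 at 900 cGy. The arrays at 300 and 500 cGy lay above all unirradiated ones. S100a8 rose 2.04-fold at 300 cGy (log2 change 1.03, SE 0.25, adjusted p = 0.00262) and 1.58-fold at 500 cGy (0.66, adjusted p = 0.0347). The 500 cGy call was lost on leaving out any 1 of 5 of the 6 arrays, all but the first unirradiated one (0.61 to 0.71). In BALB.K its arrays overlapped between doses, from 5.18, 5.6 and 5.39 at 0 cGy to 5.51, 6.29 and 5.64 at 300 cGy, and no change passed (0.43, 0 and 0.04).

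S100a9 was measured at 7.09, 7.04 and 7.16 in unirradiated B10.BR and at 7.84, 7.7 and 7.37 at 300 cGy, where the arrays lay above all the unirradiated ones. It rose 1.46-fold there (log2 change 0.54, SE 0.15, adjusted p = 0.0056). Its changes at 500 and 900 cGy were 0.31 (adjusted p = 0.0923) and 0.16 (adjusted p = 0.363). With quantile normalization they were 0.67 (adjusted p = 1.84e-05) and 0.57 (adjusted p = 8.26e-05). Of 20 alternatives, 4 at 500 cGy and 2 at 900 cGy passed the threshold. In BALB.K it went from 6.81, 7.26 and 7.06 to 7.3, 7.7 and 7.4 at 300 cGy, with no overlap. It rose 1.34-fold (0.42, adjusted p = 0.0234), a call lost without the second 300 cGy array (0.31, adjusted p = 0.12) or the first unirradiated one (0.31, adjusted p = 0.11) and with slide as a block (0.26, adjusted p = 0.343). The BALB.K changes at 400 and 800 cGy were 0.27 and 0.22 and did not pass. With quantile normalization they were 0.45 (adjusted p = 0.000892) and 0.54 (adjusted p = 0.000137), and 2 of 21 alternatives passed at each of these doses.

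Stfa1, which encodes a stefin A, had the largest rise among the 10 genes at every dose in both strains. Its BALB.K levels were -1.33, -0.98 and -0.95 at 0 cGy, 1.22, 1.96 and 1.83 at 300 cGy, 0.68, 1.64 and 1.81 at 400 cGy and 0.96, 1.71 and 1.03 at 800 cGy. In B10.BR they were -5, -4.64 and -4.72 at 0 cGy, -1.84, -1.71 and -2.33 at 300 cGy, -2.12, -1.64 and -2.22 at 500 cGy and -1.46, -1.6 and -1.81 at 900 cGy. Every irradiated array was above every unirradiated array of its strain, and every irradiated B10.BR array was still below the lowest BALB.K array. Stfa1 rose 6.75-fold, 5.51-fold and 4.98-fold in BALB.K at 300, 400 and 800 cGy (log2 changes 2.75, 2.46 and 2.32, SE 0.28, adjusted p = 2e-07, 5.81e-07 and 8.15e-07). In B10.BR it rose 7.1-fold, 6.95-fold and 8.96-fold at 300, 500 and 900 cGy (2.83, 2.8 and 3.16, adjusted p = 2.59e-07, 1.26e-07 and 1.6e-08).

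All 6 Stfa1 rises stayed past the threshold under every alternative run. Their size depended on background correction in B10.BR, where the unirradiated signal is low: with an offset of 50 added after normexp correction the 3 changes were 1.67, 1.64 and 1.97. With slide as a block the BALB.K changes were 2.3, 1.78 and 1.64 (adjusted p = 0.000157, 0.00784 and 0.0108). On the slide that holds 1 BALB.K array at 300 cGy beside the 3 unirradiated ones, the Stfa1 difference was 2.3. That array is the first at 300 cGy.

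Stfa3, another stefin A gene of the cluster, had BALB.K levels of -1.46, -1.16 and -1.34 at 0 cGy, -0.83, 0.2 and -0.21 at 300 cGy, -1.09, 0.06 and 0.08 at 400 cGy and -0.56, 0.36 and -0.79 at 800 cGy. All irradiated BALB.K arrays were above the unirradiated ones. In B10.BR the levels were -2.68, -3.13 and -3.29 at 0 cGy, -2.89, -3.08 and -3.06 at 300 cGy, -3.21, -3.04 and -2.8 at 500 cGy and -2.76, -2.76 and -3.12 at 900 cGy. The 4 B10.BR groups overlapped each other. Stfa3 rose 2.06-fold, 2.01-fold and 1.99-fold at 300, 400 and 800 cGy in BALB.K (log2 changes 1.04, 1 and 0.99, SE 0.31, adjusted p = 0.011, 0.0122 and 0.0114). In B10.BR its changes were 0.02, 0.02 and 0.15, none past the test, with a 95% confidence interval from -0.64 to 0.68 at 300 cGy. The difference of the 300 cGy changes between strains, B10.BR minus BALB.K, was -1.02 (SE 0.45, 95% interval -1.95 to -0.08) and its adjusted p was 0.155. The BALB.K calls were lost without the second 300 cGy array (0.8, adjusted p = 0.0629), the second or the third 400 cGy array (0.82 and 0.8, adjusted p = 0.0651 and 0.0665) or the second 800 cGy array (0.64, adjusted p = 0.0911). With slide as a block the BALB.K changes were 0.49, 0.18 and 0.17 (adjusted p = 0.386, 0.815 and 0.823).

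**Figure D2:**
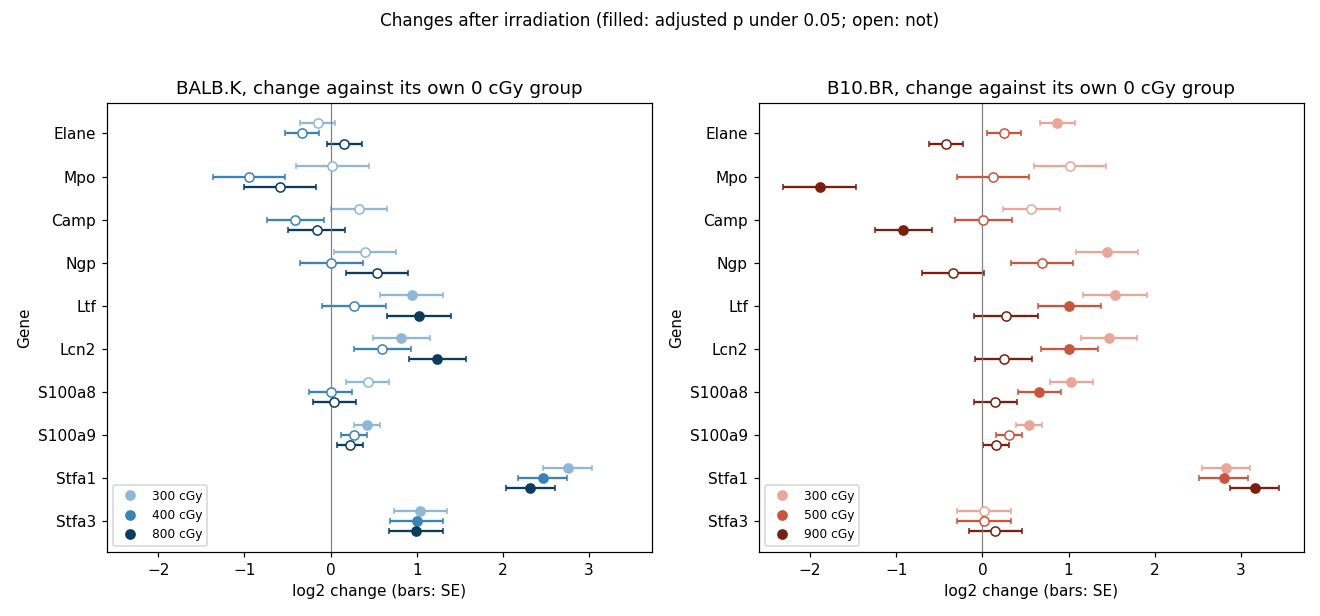
Log2 change of each gene against the 0 cGy group of its strain, BALB.K left and B10.BR right, darker at higher dose, with bars of 1 SE; filled points have an adjusted p under 0.05. In B10.BR most granule genes lie highest at 300 cGy and lowest at 900 cGy (Mpo at 1.02 and -1.89), whereas Stfa1 lies between 2.8 and 3.16 at all 3 doses.

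Counted against the whole array, the share of members past the test in B10.BR at 300 cGy was 7 of 10, all higher, where 41.8% of all features passed in either direction and 18.7% were higher and 23% lower. The median log2 change of the 10 members was 1.02 against -0.07 for all features. At 500 cGy 4 of 10 passed, all higher, beside 48.8% of features in either direction and 22.1% higher, with medians of 0.48 and -0.07. At 900 cGy 1 member (Stfa1) was higher and 2 (Mpo and Camp) were lower, beside 54.2% of all features (25.8% higher and 28.4% lower), so that the share called was below that of the array. In BALB.K 5 members rose at 300 cGy (46.8% of features in either direction, 20.7% higher and 26% lower), 2 at 400 cGy (51.5%, 25.6% and 26%) and 4 at 800 cGy (58.4%, 29.3% and 29.1%), and none fell. The share of members called in BALB.K was near that of all features at 300 cGy and below it at 400 and 800 cGy, and the medians of the members were 0.42, 0.14 and 0.38 against -0.117, 0.007 and 0.077. The 3 comparisons of a strain share its 0 cGy arrays.

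The study design includes a low and a myeloablative dose in each strain (300 and 900 cGy in B10.BR, 300 and 800 cGy in BALB.K), and the step between them was tested on its own. From 300 to 900 cGy, 7 of 10 members fell and none rose, where 22.4% of all features passed the test and 10.8% were lower. The members' median change was -1.25 and that of all features 0.054. The log2 changes of the primary granule genes were -2.9 for Mpo and -1.29 for Elane. Those of the secondary granule genes were -1.5 for Camp (adjusted p = 0.00308), -1.79 for Ngp (adjusted p = 0.00159), -1.28 for Ltf (adjusted p = 0.0176) and -1.21 for Lcn2 (adjusted p = 0.0116), and S100a8 fell by 0.88 (adjusted p = 0.0163). S100a9, Stfa1 and Stfa3 had changes of -0.38 (adjusted p = 0.0731), 0.34 (adjusted p = 0.433) and 0.13 (adjusted p = 0.821). Both groups share no slide: with slide as a fixed block none of the 10 members passed, and with slide as a random block Mpo, Elane, Ngp and Camp did. The calls of Ltf and S100a8 were also lost without the first or second 300 cGy array or the third 900 cGy array (Ltf at -1.1, -1.22 and -1.08, S100a8 at -0.75, -0.8 and -0.71), and that of Lcn2 without the first 300 cGy or the third 900 cGy array (-1.06 and -1.02). In BALB.K from 300 to 800 cGy, 0 of 10 members passed the limma test, 0 also at an unadjusted p under 0.05, beside 36.5% of all features, and the Mpo and Elane changes were -0.61 (0.18 on the other Mpo probe) and 0.32.

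To set precursor genes against mature ones within an array, the change of Elane and Mpo (mean of both against the unirradiated mean of the strain) was compared with that of S100a8 and S100a9. In B10.BR the primary granule pair changed on average by 0.95 ± 0.4 (SD, n = 3) at 300 cGy, 0.18 ± 0.25 at 500 cGy and -1.15 ± 0.22 at 900 cGy, and the calgranulin pair by 0.78, 0.48 and 0.16. The difference of the pairs was 0.27, 0.17 and 0.05 on the arrays at 300 cGy, -0.25, -0.19 and -0.46 at 500 cGy and -1.26, -1.36 and -1.31 at 900 cGy. The 3 doses did not overlap, and the spread at 900 cGy was 0.05 (SD), smaller than that of either pair. The 300 cGy arrays were on another slide than the 900 cGy arrays. The 500 cGy array at -0.46 was the only one of its group on the slide of the 900 cGy arrays. With slide as a fixed block the 900 cGy changes were -1.46 for Mpo, -0.02 for Elane, 0.3 for S100a8 and 0.36 for S100a9. The part of slide in this order was not tested. In BALB.K the difference was -0.67, -0.5 and -0.31 at 300 cGy, -1.17, -0.56 and -0.62 at 400 cGy and -0.49, -0.07 and -0.48 at 800 cGy. All 9 values were below 0, and the doses overlapped. These values use the main Mpo probe, whose BALB.K changes were 0.02, -0.95 and -0.59. The other Mpo probe changed by 0.11, -0.77 and 0.29, and the difference was not computed with it. The sign of the BALB.K values may therefore depend on the probe. The mean change of the 4 secondary granule genes was -0.19 at 900 cGy in B10.BR, between the pairs, with Camp (-0.92) and Ngp (-0.34) below 0 and Ltf (0.27) and Lcn2 (0.25) above the calgranulins; at 300 cGy the mean was 1.26. Stfa1 exceeded the calgranulin pair by 2.04, 2.31 and 3.01 in B10.BR and by 2.33, 2.33 and 2.19 in BALB.K with rising dose. These differences of pairs are descriptions and were not tested.

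**Figure D3:**
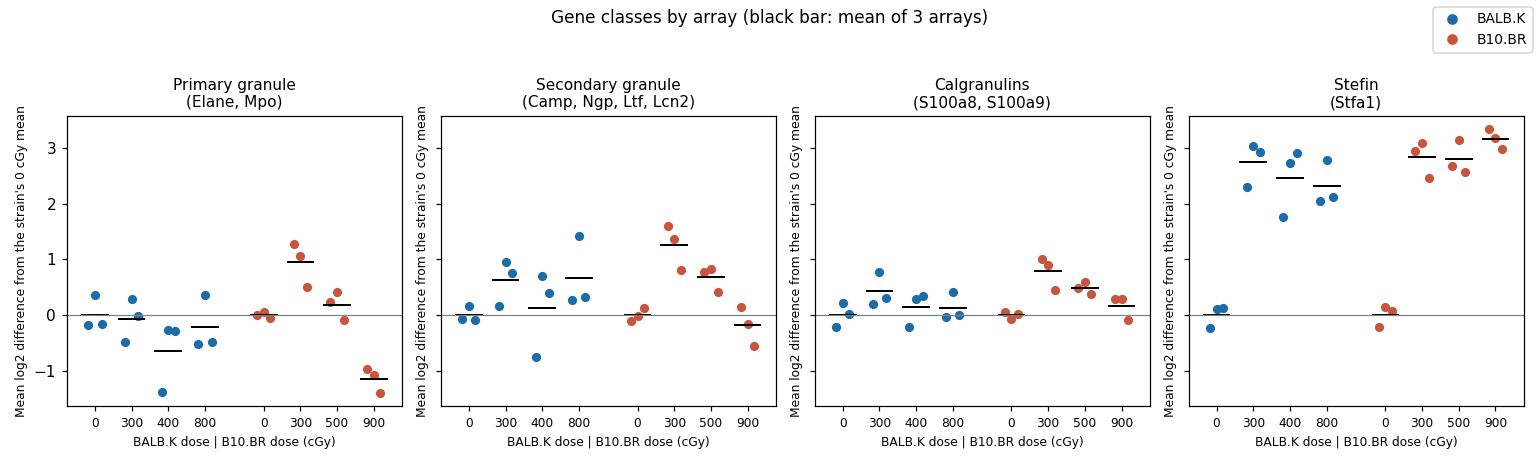
Mean log2 difference of 4 gene classes from the 0 cGy mean of the strain, per array, with BALB.K in blue and B10.BR in red and black bars at the mean of 3 arrays. In B10.BR at 900 cGy the primary granule pair stands at -1.15, the secondary granule genes at -0.19, the calgranulins at 0.16 and Stfa1 at 3.16.

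Between unirradiated strains, 3 of 10 members passed the test, 1 higher and 2 lower in B10.BR, where 53.4% of all features did (22.6% higher and 30.7% lower). Stfa1 was 13-fold lower in B10.BR than in BALB.K (log2 difference -3.7, SE 0.28, adjusted p = 5.94e-09) and Stfa3 was 3.27-fold lower (-1.71, adjusted p = 0.000206). The arrays of the strains did not overlap for either gene. Camp was 1.84-fold higher in B10.BR (0.88, adjusted p = 0.031), with levels of 4.97, 5.16 and 5.06 in BALB.K. With slide as a block the Stfa1 difference was -4.04 (adjusted p = 2.49e-05), the Stfa3 difference -1.39 (adjusted p = 0.0837) and the Camp difference 0.55 (adjusted p = 0.54), and the Camp call was also lost on leaving out any 1 of 5 of the 6 arrays, all but the first of B10.BR (0.78 to 0.93). With the normexp correction the Stfa1 difference was -2.42. Strain and slide coincide at 0 cGy, and whether sequence differences between the strains under the probes take part in these differences was not tested. Arrays scaled on spike-in RNA gave -0.65 (adjusted p = 0.00379) for S100a9, whose difference was 0.05 here (adjusted p = 0.789) and 0.36 under median scaling (adjusted p = 0.0372).

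The responses of the strains to the same 300 cGy differed for 1 of 10 members, beside 10.9% of all features (6.03% with the more positive change in B10.BR and 4.86% with the more negative). Elane changed by -0.15 in BALB.K and 0.87 in B10.BR, a difference of 1.02 (SE 0.28, 95% interval 0.43 to 1.61, adjusted p = 0.0249). That call was lost on leaving out any 1 of 5 arrays (replicates 3 at 0 cGy and 1 and 2 at 300 cGy in B10.BR, replicates 2 at 0 cGy and 1 at 300 cGy in BALB.K), with differences of 0.86 to 0.99. Ngp and Mpo had differences of 1.04 (adjusted p = 0.207) and 1 (adjusted p = 0.301). For Stfa1 the difference was 0.07, with an interval of -0.75 to 0.9. Over the alternatives it ran from -0.96 to 0.52 and never passed the test. The size of the Stfa1 change in B10.BR depended on background correction, as given above, so an equal response is not shown. At the highest doses, which are not equal (900 and 800 cGy), 0 of 10 members passed the limma test and 3 had an unadjusted p under 0.05 (Mpo, Lcn2 and Stfa1), beside 12.7% of all features. The Mpo difference there was -1.29 on the main probe (adjusted p = 0.166) and -1.93 on the other probe (adjusted p = 0.0352).

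Ordered by mean level, B10.BR at 300 cGy stood highest of the 8 groups for all 8 granule and calgranulin genes. It was separated from the next group without overlap only for Mpo (3.76 against 2.86 in B10.BR at 500 cGy) and Ngp (3.06 against 2.3). Mpo and Elane were lowest in B10.BR at 900 cGy, overlapping BALB.K at 400 cGy. For Stfa1 the order ran from B10.BR at 0 cGy over the 3 irradiated B10.BR groups, which overlapped each other, to BALB.K at 0 cGy and then the 3 irradiated BALB.K groups, which also overlapped. Stfa3 followed the same strain order, except that all 4 B10.BR groups overlapped their neighbours.

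Lists of other genes of each stage, which hold the members too, were counted in the same fit. Of 22 primary granule and precursor genes, 13 rose and 4 fell in B10.BR at 300 cGy (median 0.85), and 5 rose and 10 fell at 900 cGy (median -0.49), beside 41.8% and 54.2% of all features called. From 300 to 900 cGy 14 of them fell and 2 rose, beside 10.8% of all features lower and 11.6% higher. Ctsg, which encodes the granule protease cathepsin G, had a change of -3 (SE 0.46, adjusted p = 0.000159), Ms4a3, a marker of granulocyte and monocyte progenitors, of -2.4 (adjusted p = 0.000498) and Prtn3, proteinase 3, of -2.2 (adjusted p = 2.73e-05). Prss57, another serine protease of the group, rose by 1.28 at 300 cGy in B10.BR (adjusted p = 0.00204) and had a larger change there than in BALB.K by 1.63 (SE 0.43, adjusted p = 0.02). In BALB.K 6 rose and 3 fell at 300 cGy, 5 and 6 at 400 cGy and 6 and 6 at 800 cGy, with medians of 0.08, -0.27 and -0.15, beside 46.8%, 51.5% and 58.4% of all features called. Not all of these genes went with the granule proteins: Myb, a transcription factor of progenitors and lymphocytes, fell at every dose in both strains, with log2 changes of -1.83, -2.38 and -2.93 in BALB.K and -1.01, -1.49 and -2.23 in B10.BR, while Cebpa, a transcription factor of granulocyte precursors and macrophages, rose by 0.83 to 2.05. Hgf and Cd63 had the largest called rises of the list in B10.BR at 300 cGy (1.42 and 1.34). Both also rose at 500 cGy (1.65 and 1.48), where Elane and Mpo did not pass the test. Other cells also transcribe genes of this list, as given for Myb and Cebpa, and their part in the counts was not tested.

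Of 22 secondary and tertiary granule genes, 19 rose and none fell in B10.BR at 300 cGy (median 1.31), 15 rose at 500 cGy (median 0.99), and 7 rose and 2 fell at 900 cGy (median 0.31). Of all features 41.8%, 48.8% and 54.2% were called at these B10.BR doses, and 18.7%, 22.1% and 25.8% were higher. In BALB.K 12 rose at 300 cGy, 9 rose and 1 fell at 400 cGy, and 13 rose at 800 cGy. Of all features 46.8%, 51.5% and 58.4% were called there, and 20.7%, 25.6% and 29.3% were higher. Mmp9, a gelatinase of tertiary granules that macrophages also make, rose by 1.1, 1.05 and 1.64 in BALB.K and by 2.15, 1.69 and 2.33 in B10.BR, with a difference between strains of 1.05 at 300 cGy (SE 0.22, adjusted p = 0.00436). Mmp25, a membrane metalloproteinase of neutrophils, rose by 1.47, 1.49 and 2.18 and by 2.3, 2.49 and 1.98. Cd177, a neutrophil surface protein, rose by 1.72 in B10.BR at 300 cGy and by 1.55 in BALB.K at 800 cGy, and fell by 1.14 from 300 to 900 cGy in B10.BR (adjusted p = 0.0106). Of the 22 genes, 12 fell and none rose in that step, beside 10.8% of all features lower and 11.6% higher.

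Of 28 mature neutrophil genes, the stefins and calgranulins among them, 27 were tested. In BALB.K 22, 20 and 21 rose and 1, 1 and 2 fell (medians 0.78, 0.86 and 0.99), beside 20.7%, 25.6% and 29.3% of all features higher. In B10.BR 18, 18 and 17 rose and 1, 2 and 2 fell (medians 0.93, 0.8 and 1.19), beside 18.7%, 22.1% and 25.8% higher. From 300 to 900 cGy in B10.BR 6 rose and 4 fell, with a median of 0.23, beside 11.6% of all features higher and 10.8% lower. Il1r2, the decoy receptor of interleukin 1, rose by 1.95, 2.27 and 2.56 in BALB.K and by 1.96, 2.32 and 2.09 in B10.BR. Cxcr2, the chemokine receptor of circulating neutrophils, rose by 0.66 to 0.75 and by 0.96 to 1.26, and Fpr1, a formyl peptide receptor, by 1.19 in B10.BR at 900 cGy (adjusted p = 1.26e-05). Csf3r, the receptor of the granulocyte growth factor, had changes between -0.33 and -0.01, of which -0.33 in BALB.K at 800 cGy and in B10.BR at 500 cGy passed the test (adjusted p = 0.0355 and 0.0407). Beside these lists all 12 macrophage markers rose at every dose in both strains, and of 9 monocyte markers 6, 6 and 8 rose and 1 fell in BALB.K, while in B10.BR 5, 4 and 4 rose and 1, 2 and 2 fell. Several genes of the mature list are also made by such cells, whose part was not tested.

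The stefin family was measured with 1 probe per gene, and 9 of 10 genes were tested. In BALB.K 8 of 9 rose at each dose and in B10.BR 6 of 9 at each dose, while at 0 cGy 8 were lower and 1 higher in B10.BR. Of all features 20.7% to 29.3% rose in BALB.K and 18.7% to 25.8% in B10.BR. At 0 cGy 30.7% were lower and 22.6% higher in B10.BR. Like the Cstdc4 probe, the Cstdc5 probe resembles that of Stfa3. Cstdc5 rose by 2.57, 2.31 and 2.15 in BALB.K and by 2.62, 2.64 and 3.08 in B10.BR, where the Stfa3 changes were 0.02, 0.02 and 0.15. The strain difference of Cstdc5 was -3.89 (SE 0.26, adjusted p = 1.12e-09). Stfa2l1 rose by 1.8 to 2.14 and by 2 to 2.34, with a strain difference of -2.56, and Cstdc4 by 1.47 to 1.63 and by 1.99 to 2.55, with -2.62. Csta3 rose by 0.63 to 0.67 and by 0.53 to 1.05, and in unirradiated B10.BR its probe was well above background on 2 of 3 arrays. Stfa2 had no dose change past the test in either strain and a strain difference of -2.23 (adjusted p = 0.00235). Cstb, the stefin B gene on chromosome 10, rose by 1.17 to 1.34 and by 1.26 to 1.46 and was higher in B10.BR by 0.29 (adjusted p = 0.0252). Cstdc6 was well above background on 1 of 3 unirradiated and all 9 irradiated BALB.K arrays and on none of the 12 B10.BR arrays, so no fold is given.

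**Figure D4:**
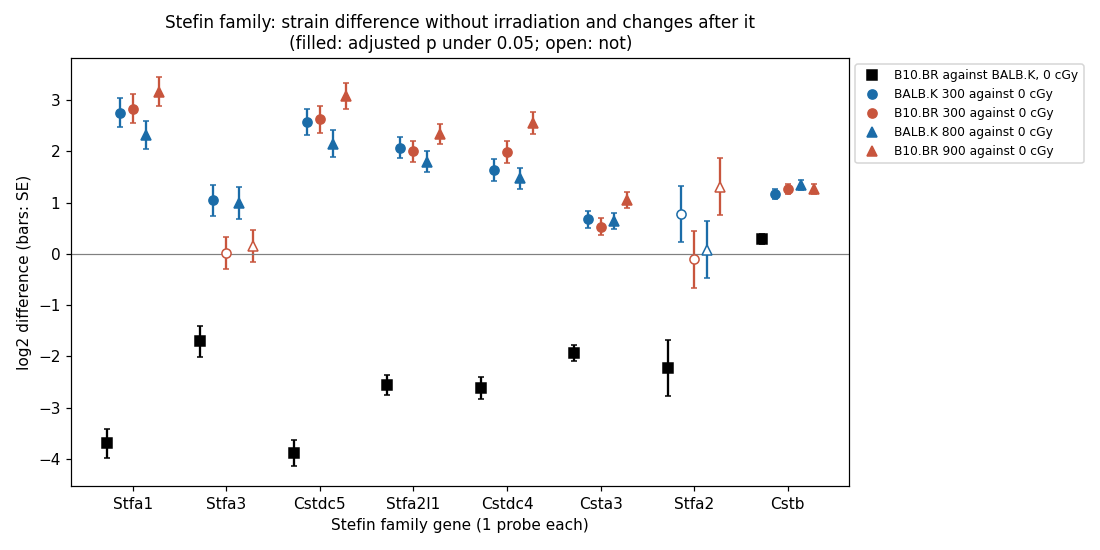
Log2 difference with bars of 1 SE for 8 stefin genes: the unirradiated strains (black squares, B10.BR minus BALB.K) and the changes at 300 cGy (circles) and at the highest dose (triangles) in BALB.K (blue) and B10.BR (red); filled points have an adjusted p under 0.05. The chromosome 16 genes lie between -3.89 and -1.71 for the strains and Cstb at 0.29, and the open red points of Stfa3 lie at 0.02 and 0.15.

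Across the 24 arrays, genes were ranked by the Pearson correlation of their level with the mean of Elane and Mpo among 16879 candidates, as a description over arrays that share strain and dose. The closest were Ctsg (0.97), 1700020L24Rik (0.957), Prss57 (0.955), Ms4a3 (0.945) and Prtn3 (0.922). Ctsg stood at 0.928 over the 12 BALB.K arrays and at 0.993 over the 12 B10.BR arrays. For the mean of S100a8 and S100a9 they were Gpr84 (0.852), Ankrd22 (0.815), Mapk6 (0.815), Anxa1 (0.805) and Wfdc21 (0.801). After the group means were subtracted, members still varied together from array to array, within classes and between them. Over the 24 arrays the correlation of deviations was 0.99 for Ltf and Lcn2, 0.86 for Elane and Mpo, 0.83 for S100a8 and S100a9 and 0.74 for Stfa1 and Stfa3. Pairs from different classes ran from 0.58 for S100a9 and Stfa3, the lowest of all, to 0.96 for Mpo with Ltf and with Lcn2. Elane stood at 0.91 with S100a9, above its value with Mpo.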

How the data were processed

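RNA of 24 spleen pools was hybridised to one-colour Agilent arrays. Agilent Feature Extraction 10.5.1.1 was used, per the submitters' processing notes, and the deposited scanner files hold the processed intensity of each spot, already corrected for background by the authors' scanner software, per the file headers. The authors' deposited matrix of normalised log2 values was used as an alternative within a strain only, since its centring is not stated in the sources used here.

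The processed intensity of each spot was taken as log2 minus the 75th percentile of its array. Outlier spots were left out, spots of a probe were averaged, and probes were kept where a group had them well above background on all 3 arrays, which left 42307 probes and 29521 features with 1 probe each, chosen by mean level. Of these, 19815 carry a RefSeq symbol (by accession, symbol or synonym). All 8 groups entered a single limma fit (limma 3.58.1 in R 4.3.3, with the data.table package 1.17.8), with Benjamini-Hochberg adjustment. All 11 comparisons come from that fit, and 24 arrays limit the precision. On data simulated for the comparison of 300 with 0 cGy in BALB.K (29521 features), the fit recovered 62 of 100 changes of 1 and 92 of 100 changes of 2 on the log2 scale, and 3.75% of calls were false. The simulation changed only these features, in the 300 cGy group, and drew noise independently for each feature. In the real comparison 46.8% of features were called and members varied together, so these rates need not hold there.

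Replicate numbers are not stated to pair the pools and were left out of the fit. Correlations of same-numbered deviations lay between -0.34 and 0.3, and no comparison had all 3 above 0.1. These values do not settle whether pools were paired. The members, the gene lists and the motifs were chosen with earlier results of these data known. The rule for named genes took all 10 members in every comparison, up to 3 genes per neutrophil list and comparison with the largest changes past the test, and the 5 genes most correlated with each of 2 member pairs. Not all genes that the rule took are named in the text. Other list genes (Csf3r, Cxcr2) were chosen after their values were seen. No 2 arrays were identical. Coordinates of probes are mm9 per the scanner files, those of promoters GRCm38.p6. Exon and intron positions were not analysed here.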

Additional observations from a re-analysis of the deposited data

Results flagged for a closer look

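Elane was flagged because its response to the same dose passed the test for a difference between strains. Its log2 change at 300 cGy was -0.15 in BALB.K and 0.87 in B10.BR, a tested difference of 1.02 (adjusted p = 0.0249). This was 1 of 10 members, near the share of all features that passed (10.9%). Mpo, of the same class, had a difference of 1 that did not pass (adjusted p = 0.301). Under the alternatives that use all arrays, the Elane difference was 0.8 with median scaling (adjusted p = 0.0522) and 1.32 with slide as a block (adjusted p = 0.0185). The adjusted p for Elane was 0.0843 with only the groups compared. Of the 12 arrays compared, leaving out any 1 of 5 took the adjusted p of Elane above 0.05, with differences of 0.86 to 0.99: the third unirradiated and the first and second 300 cGy arrays of B10.BR, and the second unirradiated and first 300 cGy arrays of BALB.K.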

How the results depend on the processing

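Leaving out 1 array at a time, with the spread pooled over all groups, gave the following ranges of members called: 7 to 8 in B10.BR at 300 cGy, 1 to 3 at 500 cGy, 2 to 3 at 900 cGy and 4 to 8 for 900 against 300 cGy; 1 to 5 in BALB.K at 300 cGy, 2 to 3 at 400 cGy, 3 to 4 at 800 cGy and 0 for 800 against 300 cGy; 2 to 3 between unirradiated strains, 0 to 1 for the difference at 300 cGy and 0 for that at the highest dose. The features called ranged, in the same order, from 10474 to 11419, 12988 to 13601, 14596 to 15167, 4818 to 5769, 11911 to 14550, 13527 to 14871, 15710 to 17042, 7607 to 10406, 13472 to 16264, 1893 to 4753 and 2573 to 4795.

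The replicate block gave 6 members in BALB.K at 400 cGy, 1 for BALB.K 800 against 300 cGy and 4 for the difference at the highest dose, but the replicate numbers are not stated to pair the pools. With slide as a block, 1 member was called in each of BALB.K 300, 400 and 800 cGy, B10.BR 900 cGy and the unirradiated strains, and 0 for B10.BR 900 against 300 cGy, where 2582 features passed; 5743 passed between strains and 408 for the difference at the highest dose. With a random slide block the members were 2, 1 and 2 in BALB.K and 4 for B10.BR 900 against 300 cGy, and 1494 features passed for the difference at the highest dose. With only the groups compared, members were 2 in BALB.K at 300 cGy, 1 at 400 cGy and 0 for the difference at 300 cGy, and features were 8177, 3882 (B10.BR 900 against 300 cGy) and 873 (difference at 300 cGy). In BALB.K at 300 cGy the intensity trend and no filter each gave 3 members and the deposited matrix 2, and the matrix gave 1 at 400 cGy. Arrays of like Y-linked signal gave 2 members in BALB.K at 800 cGy and 5398 features for 800 against 300 cGy.

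Spike-in scaling, over 10 probes, moved the median of all features from -0.07 to 0.264 in B10.BR at 300 cGy, from -0.1 to -0.798 between strains and from 0.131 to 0.566 for BALB.K 800 against 300 cGy. It called 7633, 9435 and 1359 features for B10.BR 300, 500 and 900 against 300 cGy, 8836 for BALB.K 300 cGy and 1996 and 620 for the differences, and 7 members in B10.BR at 500 cGy, 5 between strains, 1 in BALB.K at 300 cGy and 2 for 800 against 300 cGy. It turned the strain difference of S100a9 to -0.65. The share of calls that were higher went from 44.8% to 85% in B10.BR at 300 cGy, 45.2% to 78.8% at 500 cGy, 47.6% to 78.6% at 900 cGy, 49.6% to 62.5% in BALB.K at 400 cGy, 50.1% to 76.6% at 800 cGy, 58% to 95.5% for 800 against 300 cGy, 55.4% to 97.1% for the difference at 300 cGy and 42.4% to 5.66% between strains. Median scaling gave 61.9% in BALB.K at 300 cGy (44.3% in the fit reported), 21.8% for 800 against 300 cGy, 21% for the difference at 300 cGy and 69.2% between strains, and 1 member for 800 against 300 cGy, 0 for the difference at 300 cGy and 5207 features there. The causes of these moves were not tested.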

Other observations

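Genes that draw neutrophils to tissue and genes of the acute phase were counted beside the granule genes. Of 13 recruitment ligands and growth factors, 10 were tested: 5 rose in BALB.K at 300 cGy, 6 at 400 cGy and 4 at 800 cGy, where 1 fell, and 6, 6 and 7 rose in B10.BR. Of all features 46.8%, 51.5% and 58.4% were called in BALB.K, with 20.7%, 25.6% and 29.3% higher. In B10.BR 41.8%, 48.8% and 54.2% were called, with 18.7%, 22.1% and 25.8% higher. The share of recruitment genes called in BALB.K was near that of all features. The medians of the tested genes lay between 0.66 and 1.01, against -0.117 to 0.077 for all features. Cxcl5, a ligand of the neutrophil receptor Cxcr2, rose by 1.33, 1.09 and 1.32 in BALB.K and by 1.69, 1.87 and 2.54 in B10.BR, and its change at the highest dose was larger in B10.BR by 1.22 (SE 0.19, adjusted p = 0.000423). Csf3, the granulocyte growth factor itself, was among the 3 genes that did not pass the filter on dim probes.

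Of 9 acute-phase genes tested, 5 rose and 1 fell in BALB.K at 300 cGy, 5 rose at 400 cGy and 7 at 800 cGy, and 8, 7 and 5 rose in B10.BR. The shares of all features called are those given for the recruitment genes. Saa3, a serum amyloid A made by macrophages and stroma, rose by 3.47, 4.75 and 5.18 in BALB.K and by 3.41, 4.68 and 4.14 in B10.BR. Serpina3n, a serine protease inhibitor, rose by 1.9, 2.84 and 4.05 and by 3.26, 3.53 and 3.9. These rises were larger than that of Lcn2, which shares this list of genes that other cells can induce. Arg2, an arginase listed with granule genes, rose by 3.24 in BALB.K at 800 cGy and by 2.07 in B10.BR at 900 cGy, with a difference of -1.17 (SE 0.24, adjusted p = 0.00324), and it was lower in unirradiated B10.BR by a log2 difference of -3.05.

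Markers of other granulocytes were counted in the same way, beside the same shares of all features called. Of 10 eosinophil markers, 4 rose and 2 fell in BALB.K at 300 cGy, 5 rose and 2 fell at 400 cGy and 6 rose and 4 fell at 800 cGy, and in B10.BR 5, 4 and 5 rose and 1, 2 and 2 fell, with medians between 0.23 and 0.66. The mean log2 level of 10 eosinophil markers lay between -1.31 and -0.62 in unirradiated BALB.K and between -0.86 and -0.65 at 800 cGy, and between -0.92 and -0.44 in unirradiated B10.BR and between -0.13 and -0.01 at 300 cGy. The mean level of 9 mast cell and basophil markers lay between -2.94 and -1.78 on all 24 arrays.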
